A study of Mus musculus with 24 samples.

Results

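Quadriceps muscle of delEx44 mice, which lack exon 44 of Dmd, was compared with quadriceps of wild-type (WT) mice at 4 weeks of age. Both groups were sedentary, had the C57BL/6 strain label and held 3 libraries each, so the comparison uses 6 of the 24 samples of the series. The members were chosen by their labels alone, as the WT and delEx44 columns of the 4-week sedentary groups. The other samples were CRISPR-Cas9 treated delEx44 muscle at 4 weeks, the 3 genotypes at 8 weeks after downhill running, and the 3 genotypes at 18 months. Per the labels, tissue was snap frozen, a miRNAeasy mini kit was used for extraction, and polyA RNA libraries were made with the Illumina TruSeq kit. Only the corrected groups are named for the AAV9 delivery of Cas9 and guide, and the labels do not say whether other mice had a mock injection. The labels give each library its own number and name no litter, sex or hour of harvest, so p-values here measure the spread between libraries. That spread was estimated over 15 libraries, which include the corrected muscle at 4 weeks and the 3 genotypes after running.

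Dystrophin, the protein of Dmd, ties the actin cytoskeleton under the muscle fibre membrane to a complex of sarcoglycans, dystroglycan and syntrophins that binds the matrix outside. Without it the membrane tears under load. Fibres die and are cleared by macrophages, and satellite cells, the stem cells of muscle, divide and fuse into new fibres that for a time carry embryonic sarcomere proteins. In mice with such mutations this cycle is known to be under way in young limb muscle.

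Exons 44 and 45 of Dmd are shown because the genotype turns on their reading frame. Coordinates are on chromosome X of GRCm38, plus strand, and the exon sequences were read from GENCODE vM21 (transcript Dmd-203, 79 exons). Exon 44 spans chrX:84022265-84022412 (148 bases) and exon 45 spans chrX:84271952-84272127 (176 bases). Exon 43 (173 bases) ends with 2 bases of an open codon. The 148 bases of exon 44 leave a remainder of 1 on division by 3 and close that codon, so exon 45 starts in frame when exon 44 is present.
Dmd exon 44: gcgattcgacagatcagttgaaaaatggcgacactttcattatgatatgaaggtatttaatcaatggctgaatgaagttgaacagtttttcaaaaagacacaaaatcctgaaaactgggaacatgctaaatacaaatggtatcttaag
Dmd exon 45: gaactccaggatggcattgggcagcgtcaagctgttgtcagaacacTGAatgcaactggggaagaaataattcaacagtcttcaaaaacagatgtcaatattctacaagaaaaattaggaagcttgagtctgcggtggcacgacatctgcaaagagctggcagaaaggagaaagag
Capitals in exon 45 mark the first stop codon met when exon 43 is joined directly to exon 45, with its first base at position 47 of exon 45, counted from 1 at the exon's 5′ end. In the frame without exon 44, 2114 codons are read before that stop, 57.5% of the 3678 codons of the full frame, and 34 exons follow exon 45. The joined ends of exons 43 and 45 are printed next, with the last 15 bases of exon 43 in lower case and the first 15 of exon 45 in capitals.
Dmd junction of exons 43 and 45: caaggaacgacaaggGAACTCCAGGATGGC
Because the counts pool all exons of Dmd, neither exon 44 nor this junction could be read from them, and the genotypes are those of the labels.

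In the following, a level is CPM, a gene's count relative to its library's total as scaled by TMM factors (edgeR's trimmed mean normalization). Levels are given for replicates 1, 2 and 3 of WT and then of delEx44. A fold change is the log2 of delEx44 over WT with its standard error (SE). The adjusted p is that of edgeR's quasi-likelihood test with Benjamini-Hochberg adjustment over all 15013 genes tested, and genes with an adjusted p under 0.05 are said to have risen or fallen. By that rule 3788 genes rose (25.2% of those tested) and 3753 fell (25%), and these shares are the background for every list of genes below. All 3 delEx44 libraries lay above all 3 WT libraries for 29.9% of the genes tested and below them for 28.7%. A rise of 1 log2 unit or more was found for 1482 genes and a fall of that size for 362.

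The 6 libraries held 30552867 to 38090522 counts in genes. The 20 most abundant genes took 32.1% to 34.6% of the counts in WT and 22.3% to 25.6% in delEx44, and the TMM factors were 0.872 to 0.916 and 1.13 to 1.24. Scaling by total counts alone moved the median of all genes from −0.0039 to 0.39 and made 91.2% of the calls rises, against 50.2% with TMM. Falls are therefore relative to the median gene, and lists whose direction turned under total counts alone are named as such. A test against a change of 1.5-fold left 1651 calls, of which 78.6% were rises. In bulk muscle, fewer cells of a type and less RNA per cell cannot be told apart.

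All 6 libraries carried the markers of skeletal muscle. The summed level of 15 fibre genes, among them Ckm, Acta1, Ttn and Mylpf, was 219000, 197000 and 208000 CPM in WT and 100000, 119000 and 127000 CPM in delEx44. A list of skin genes summed to between 12.2 and 16 CPM in the 6 libraries, and of its 4 tested members 1 rose and 1 fell. WT replicate 3 stood apart from its group. Its log2 levels correlated with WT replicates 1 and 2 at a Pearson's r of 0.9886 and 0.9892 across genes, against 0.9961 between those 2 and 0.9945 to 0.9956 among delEx44 libraries. Genes are not independent replicates, so these values are descriptions.

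WT replicate 3 carried transcripts of bone, cartilage and marrow that the other WT libraries lacked. Counts in WT replicates 1, 2 and 3 were 0, 0 and 1835 for Ibsp, a bone matrix sialoprotein, and 0, 0 and 403 for Bglap, osteocalcin. Those of Ngp and Camp, granule proteins of neutrophil precursors, were 0, 1 and 1926 and 0, 0 and 585. Hemgn, a gene of red cell precursors, had 0, 0 and 229 counts, and Col10a1, the collagen of hypertrophic cartilage, had 0, 1 and 333. Summed over the neutrophil list the level was 6.49, 5.41 and 328 CPM in WT and 56.8, 39.5 and 80.1 CPM in delEx44, and over the cartilage list it was 192, 167 and 616 against 167, 192 and 134 CPM. In all, 41 genes were at 5 CPM or more in WT replicate 3 and at 5 times or more the level of both other WT libraries. Of these, 20 were called lower in delEx44 with that library in the fit, while without it 2 were called lower and 11 higher.

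The globin genes Hbb-b1, Hba-a1, Hba-a2, Hbb-bt and Hbb-bs were listed at 0 in all 6 libraries, so red cell content could be read only from Slc4a1 and similar genes. WT replicate 3 was also low in slow-fibre genes. Myh7, the slow myosin heavy chain, stood at 13.5, 7.49 and 1.27 CPM per kilobase of exon in WT and at 3.64, 3.82 and 3.24 in delEx44. Every result was therefore fitted again without WT replicate 3. Of the calls, 3384 rises and 3384 falls were found in both fits, while 404 rises and 369 falls were not found without it. Results that turn on this library are given both ways.

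**Figure D1:**
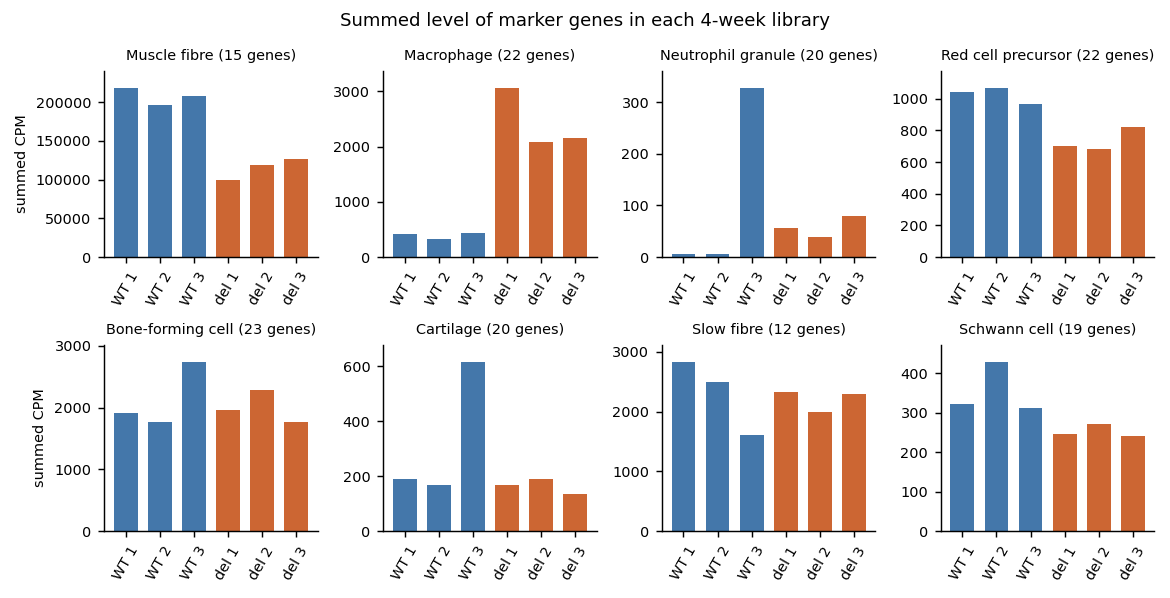
Summed CPM of 8 marker lists in each 4-week library (linear axes from 0, WT in blue, delEx44 in orange, 1 bar per library). WT 3 has the highest bars for neutrophil granule and cartilage genes and the lowest for slow-fibre genes, while macrophage genes are high in all 3 delEx44 libraries.

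**Figure D2:**
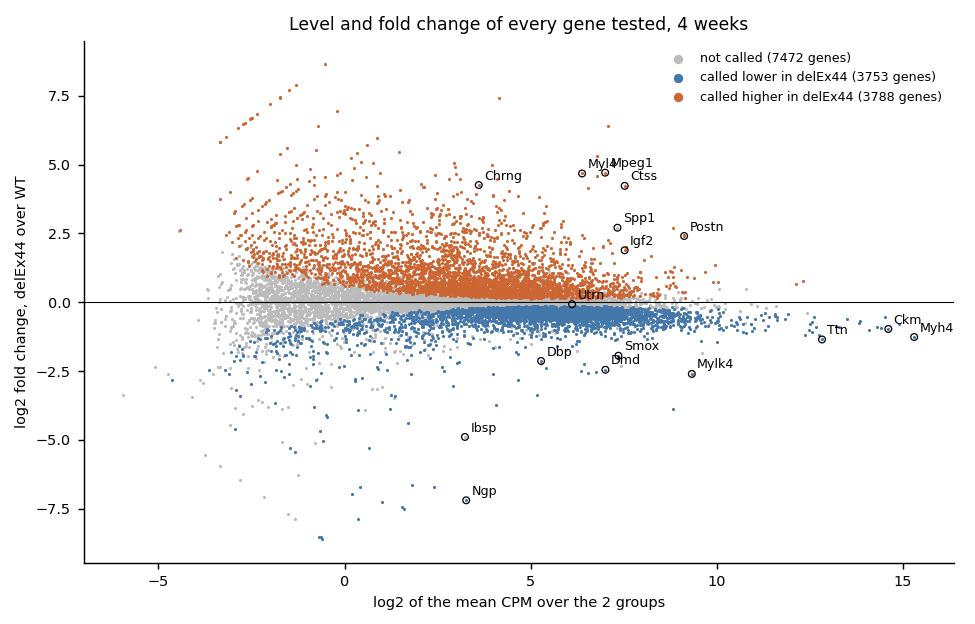
Mean level over the 6 libraries (log2 CPM, x axis) and log2 fold change of delEx44 over WT (y axis) for every gene tested, 1 point per gene, coloured by call. Fibre genes such as Myh4, Ckm and Ttn lie at the right edge below 0, and Myl4, Mpeg1 and Ctss lie above 4.

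Transcripts of the dystrophin complex fell in part. Dmd stood at 240, 208 and 204 CPM in WT and 36.1, 41.8 and 41.2 CPM in delEx44 (log2 −2.45 ± 0.083, adjusted p = 2.8e-09), and no other tested gene of its family or complex fell by as much. Per kilobase of exon, Dmd made up 64.3%, 58.5% and 61.3% of the summed level of Dmd, its autosomal relative Utrn and Drp2 in WT, and 19.3%, 22.7% and 24.1% in delEx44. Exon length here is that of all annotated exons of a gene together, 23801 bases for Dmd against 14910 in transcript Dmd-203. Shares between members of a family, here and below, depend on this length and are approximate. Utrn was at 70.9, 74.2 and 66.6 CPM in WT and 72, 69.3 and 60.7 CPM in delEx44, and the groups overlapped (log2 −0.07 ± 0.075, adjusted p = 0.47). Because Dmd was low, the share of Utrn went from between 26.4% and 29% to between 49.3% and 53.4% with no rise of its own. The dystrobrevin Dtna, a partner of dystrophin, fell (log2 −0.25, adjusted p = 0.021). Drp2 was higher (0.31, adjusted p = 0.041), but its call was lost without WT replicate 3 (adjusted p = 0.11).

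Of 22 genes of the membrane complex and its glycosylation, 11 fell and 4 rose (median log2 −0.27, and 0.13 with 4 falls and 9 rises under total counts alone). Sgca, alpha-sarcoglycan (chromosome 11, 94962791 to 94976327), stood at 240, 249 and 231 CPM in WT and 128, 153 and 147 CPM in delEx44 (log2 −0.75 ± 0.079, adjusted p = 8.9e-06). The highest delEx44 library was well under the lowest WT library. Its partners Sgcb (−0.56), Sgcd (−0.58) and Sspn, sarcospan (−0.50), fell with it. Aqp4, the water channel anchored by syntrophin, fell by about as much as the fibre genes, from 124, 129 and 113 CPM to 68.9, 50.7 and 57.3 CPM (log2 −1.05 ± 0.16, adjusted p = 0.00022). Nos1, the neuronal nitric oxide synthase that dystrophin holds at the membrane, was at 22.5, 20.1 and 17.3 CPM in WT and 10.7, 16.6 and 15.4 CPM in delEx44 (−0.49 ± 0.17, adjusted p = 0.033).

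The 4 members that rose were beta-syntrophins, an integrin and a collagen VI chain. Sntb1, beta-1-syntrophin, was at 5.1, 4.01 and 4.91 CPM in WT and 10.5, 5.74 and 7.3 CPM in delEx44 (log2 0.74 ± 0.19, adjusted p = 0.0047). Sntb2 rose by 0.52 and Col6a1, a chain of collagen VI, by 0.38. Itga7, the integrin subunit that binds laminin beside dystroglycan, stood at 104, 121 and 103 CPM in WT and 198, 151 and 187 CPM in delEx44 (0.71 ± 0.12, adjusted p = 0.00045). The groups did not overlap for Itga7 or Sntb1. Dag1, dystroglycan itself (−0.14, adjusted p = 0.18), Lama2 (−0.12, adjusted p = 0.36), Cav3 (−0.16, adjusted p = 0.12), Itgb1 (0.16, adjusted p = 0.12), Sgce (0.22, adjusted p = 0.062) and Sntg2 (−0.04, adjusted p = 0.95) did not pass, and neither did Dtnb (−0.22, adjusted p = 0.22). The glycosyltransferases Pomt1 and Large fell by 0.35 and 0.29.

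Membrane repair genes went both ways. Of 17 tested, 7 rose and 3 fell (median 0.02). Dysf, dysferlin, the calcium sensor of membrane resealing, fell slightly, from 103, 102 and 107 CPM to 76, 77.9 and 85.6 CPM (log2 −0.38 ± 0.079, adjusted p = 0.0013). Myof, myoferlin, a dysferlin relative of fusing myoblasts, rose from 22.5, 21.9 and 23 CPM to 73.5, 67 and 64.1 CPM (1.60 ± 0.089, adjusted p = 2.4e-07). The 2 ferlins moved in opposite directions here, but under total counts alone Dysf stood at 0.01. The annexins, calcium-bound proteins that cap membrane wounds, rose: Anxa1 was at 49.2, 51.5 and 62.2 CPM in WT and 155, 139 and 143 CPM in delEx44 (1.42 ± 0.12), and Anxa2 (1.09), Anxa5 (0.75) and their partners S100a10 (0.73) and S100a11 (0.76) rose too. Macrophages and fibroblasts also express annexins, and the part of these cells in the rise was not tested.

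Adult fast sarcomere genes fell and developmental isoforms rose. Of 16 fast-fibre genes 14 fell and 0 rose (median −0.87, and −0.48 with 13 falls under total counts alone). Myh4, the IIB myosin heavy chain of the fastest fibres (chromosome 11, 67238029 to 67260446), was at 60400, 50400 and 59400 CPM in WT and 19400, 26000 and 25700 CPM in delEx44 (log2 −1.26 ± 0.15, adjusted p = 1.9e-05). Actn3, the alpha-actinin of fast fibres, went from 9700, 8930 and 9980 CPM to 3490, 4350 and 4680 CPM (−1.19 ± 0.12, adjusted p = 6e-06). In both genes delEx44 replicate 1 was lowest. Tnnt3, fast troponin T (−0.99), Atp2a1, the fast calcium pump (−0.92), Mybpc2 (−0.89) and Tpm1 (−0.88) fell in step. The fast light chains Mylpf (−0.53) and Myl1 (−0.60) fell by less than Myh4 and Actn3.

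With all libraries, heavy chains of the slower fast fibres changed less than Myh4, and their calls turned on WT replicate 3. For Myh2 the size of the difference turned on that library too. Myh1, IIX myosin, was at 7220, 6620 and 4610 CPM in WT and 4700, 4240 and 5310 CPM in delEx44 (−0.37 ± 0.19, adjusted p = 0.13, and −0.54 with adjusted p = 0.026 without WT replicate 3). Myh2, IIA myosin, was at 1380, 1420 and 520 against 674, 730 and 524 CPM (−0.79 ± 0.35, adjusted p = 0.084, and −1.12 with adjusted p = 0.003 without that library). Both overlapped between groups because WT replicate 3 was lowest of the WT libraries. As a share of 6 heavy chains per kilobase, Myh4 went from 88.2%, 87% and 92.5% in WT to 77.6%, 84.2% and 81.7% in delEx44, and Myh1 from 9.98%, 10.8% and 6.8% to 17.8%, 13% and 16%.

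Slow-fibre genes gave no common direction. With all libraries 3 of 12 rose and 0 fell, and without WT replicate 3, 1 rose and 5 fell. Myl2, the slow regulatory light chain (−1.02, adjusted p = 0.25, and −1.53 with adjusted p = 0.017 without WT replicate 3), and Myh7 (−1.05, adjusted p = 0.24, and −1.56 with adjusted p = 0.026) passed only in the second fit. Tnni1, the slow troponin I that is also made in fetal fibres, rose in both fits (2.85 and 2.41). It stood at 23.7, 13.7 and 4.11 CPM in WT and 160, 53.5 and 84.7 CPM in delEx44.

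Embryonic and fetal isoforms rose from low levels. Myh8, the perinatal myosin heavy chain (chromosome 11, 67277124 to 67308634), stood at 9.92, 8.7 and 11.5 CPM in WT and 257, 98.9 and 175 CPM in delEx44 (log2 4.14 ± 0.33, adjusted p = 5.2e-06). Myl4, the embryonic essential light chain, went from 5.51, 6.46 and 6.69 CPM to 262, 73.7 and 144 CPM (4.68 ± 0.46, adjusted p = 2.1e-05). Tnnt2, cardiac troponin T, which embryonic skeletal fibres also make, went from 4.76, 4.98 and 5.03 CPM to 111, 45.2 and 54.4 CPM (3.83 ± 0.36, adjusted p = 1.2e-05). All 3 were tight in WT, and in delEx44 replicate 1 was highest and replicate 2 lowest each time. Myl6b (1.70), Ankrd1, a stress-response titin partner (1.94), and Nes, nestin (0.51), rose as well, so that 9 of 16 genes rose.

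Per kilobase these isoforms stayed a small part of their families. Myl4 made up 0.0174% to 0.0228% of the essential light chains in WT and 1.44%, 0.364% and 0.626% in delEx44, and Tnnt2 made up 0.223%, 0.0742% and 0.0879% of troponin T in delEx44. Not all genes on the developmental list rose, and 4 fell. Actc1, cardiac actin, which is abundant in young skeletal muscle, fell from 7580, 6540 and 7710 CPM to 2410, 3580 and 3520 CPM (−1.20 ± 0.26, adjusted p = 0.0025). Mybph (−1.03), Xirp1 (−1.13) and Nrap (−0.71) fell with it. The folds of Actc1, Mybph and Xirp1 were near that of Myh4, and that of Nrap was smaller. All 4 were far from that of Myh8.

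**Figure D3:**
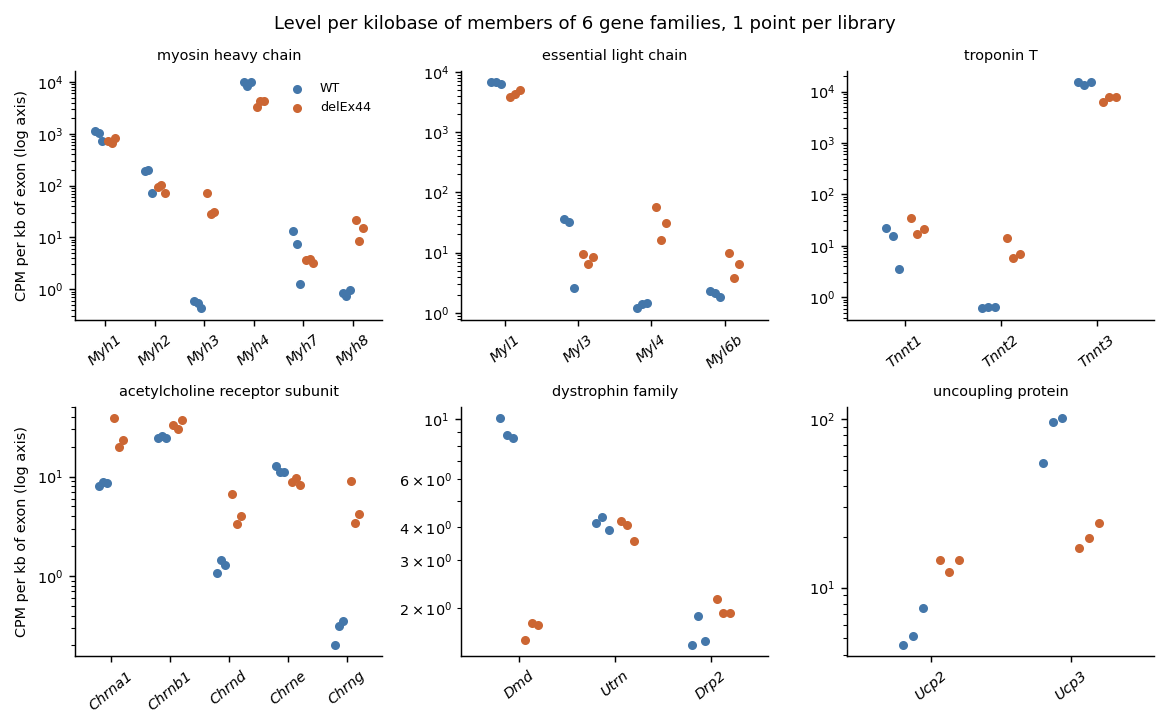
CPM per kilobase of exon (log axes) of members of 6 gene families, 1 point per library, WT in blue and delEx44 in orange. Myh3, Myh8, Myl4, Tnnt2 and Chrng rise by more than a factor of 10 from low WT levels while the main adult members Myh4, Myl1 and Tnnt3 stay highest in their panels.

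Of 25 genes of the Z-disc, the M-band and the giant sarcomere proteins 19 fell and 0 rose (median −0.78, and −0.38 with 15 falls and 3 rises under total counts alone). Ttn, titin (chromosome 2, 76703980 to 76982547, minus strand), the spring that spans the sarcomere, was at 13600, 7340 and 10200 CPM in WT and 3160, 4310 and 4740 CPM in delEx44 (log2 −1.35 ± 0.23, adjusted p = 0.00046). WT replicate 1 was well above WT replicate 2, and no delEx44 library reached the lowest WT library. Neb, nebulin, went from 8540, 6710 and 7340 CPM to 3220, 4030 and 4010 CPM (−1.01 ± 0.13), and Tcap, the cap of titin at the Z-disc, fell by 1.44 on the log2 scale (adjusted p = 0.0012). Xirp2 (−1.03), Cmya5 (−1.0), Myoz1 (−0.91) and Myoz3 (−0.87) were among the smallest p-values. Myom2, the fast M-band protein, fell from 2610, 2430 and 2440 CPM to 1500, 1550 and 1850 CPM (−0.61 ± 0.1).

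The promoter of Ttn is printed for a loose form of the MEF2 motif, the site of the myocyte enhancer factors that drive muscle genes. This form was in 8 of 17 Z-disc list promoters (47.1%) but in 0 of 12 fast-fibre promoters, against 4.23% of promoters of 27025 genes. The pattern searched was CTA and TAG with any 4 bases between them, which reads the same on both strands. It is wider than the MEF2 site, which has only A or T at these 4 bases. The matches of Obsl1, Ldb3, Flnc and Des hold a G or C there, so the share is not one of MEF2 sites. Promoters are RefSeq sequences of GRCm38.p6 around the gene start, printed 5′ to 3′ on the gene's strand, here chr2:76982498-76982797 (minus), with the match in capitals.
Ttn promoter: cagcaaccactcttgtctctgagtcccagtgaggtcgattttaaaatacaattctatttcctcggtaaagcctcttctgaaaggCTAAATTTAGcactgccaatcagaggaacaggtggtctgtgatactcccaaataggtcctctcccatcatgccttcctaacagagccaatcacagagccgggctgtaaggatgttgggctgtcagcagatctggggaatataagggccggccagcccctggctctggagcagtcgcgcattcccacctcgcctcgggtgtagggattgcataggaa
The match is a description of the letters and not of a bound site, and both lists fell.

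Genes of myoblast commitment and fusion rose, while the satellite cell marker did not pass. Pax7, the marker of satellite cells, was at 4.44, 6.39 and 3.99 CPM in WT and 5.23, 5.29 and 4.52 CPM in delEx44, with full overlap (log2 0.03 ± 0.19, adjusted p = 0.92). Myf5 was called higher (0.50, adjusted p = 0.034), but its call was lost without WT replicate 3 (adjusted p = 0.11). Myod1, the determination factor of myoblasts (chromosome 7, 46376474 to 46379099), stood at 13.1, 14.1 and 13.7 CPM in WT and 64.9, 43.4 and 39.9 CPM in delEx44 (1.86 ± 0.25, adjusted p = 0.00011). Myog, myogenin, which acts when myoblasts differentiate, went from 14.7, 21.3 and 30.8 CPM to 140, 77.7 and 86.6 CPM (2.19 ± 0.34, adjusted p = 0.00039). These 2 factors lay apart between the groups in every library.

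The fusion proteins rose too. Myomaker, listed as Tmem8c, was at 4.19, 5.38 and 6.96 CPM in WT and 55.9, 26.1 and 32.2 CPM in delEx44 (2.79 ± 0.39, adjusted p = 0.00019). Myomixer, listed as Gm7325, was at 0.346, 0.289 and 0.595 CPM against 15.5, 7.27 and 8.13 CPM (4.62 ± 0.45, adjusted p = 1.4e-05). Both were highest in delEx44 replicate 1, the library that also led for Myh8 and Myl4. The adhesion proteins Ncam1 (1.60) and Vcam1 (0.85) rose too, and in all 13 of 27 genes on this list rose and 3 fell (median 0.28). Without WT replicate 3, 10 rose and 3 fell.  Mstn, myostatin, which restrains muscle growth and is made by mature fibres, fell from 83.1, 76.9 and 74.9 CPM to 26.7, 36.1 and 30 CPM (−1.34 ± 0.13, adjusted p = 7.6e-06). Mef2c fell by 0.39.

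Growth genes of young muscle, most of them imprinted, rose in 10 of 21 cases and fell in 1 (median 0.36). Under total counts alone 18 rose and 0 fell (median 0.76). Igf2, the fetal insulin-like growth factor (chromosome 7, 142650766 to 142666816), was at 74, 85.2 and 75.2 CPM in WT and 356, 254 and 259 CPM in delEx44 (log2 1.89 ± 0.16, adjusted p = 3.5e-06). H19, the noncoding RNA beside it, was at 4130, 4430 and 2720 CPM against 6530, 6340 and 6260 CPM (0.76 ± 0.17, adjusted p = 0.0029). Mest (1.74), Dlk1 (1.27), Plagl1 (1.15) and Zim1 (0.92) rose. Igf1, the postnatal growth factor, was at 157 CPM on average in WT and 169 in delEx44 and did not pass (adjusted p = 0.7). Igfbp5, which binds these factors, fell by 0.55 (adjusted p = 0.032).

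Of 21 genes of the nerve-muscle synapse 9 rose and 3 fell (median 0.18, and 0.58 with 1 fall and 15 rises under total counts alone). Chrng, the fetal gamma subunit of the acetylcholine receptor (chromosome 1, 87204657 to 87212694), stood at 0.85, 1.3 and 1.46 CPM in WT and 37.5, 14.1 and 17.7 CPM in delEx44 (log2 4.26 ± 0.4, adjusted p = 8e-06). Chrne, the epsilon subunit that replaces it in adult receptors, fell from 21.7, 19 and 19 CPM to 14.9, 16.3 and 13.9 CPM (−0.40 ± 0.081, adjusted p = 0.0012). With TMM the fetal and the adult subunit thus moved in opposite directions. The fall of Chrne was about as large as the shift of the median gene under total counts alone (from −0.0039 to 0.39), so its direction rests on the scaling. Chrna1 went from 35.2, 38.6 and 38.2 CPM to 169, 86.8 and 102 CPM (1.67 ± 0.2), and Chrnd (1.87) and Chrnb1 (0.43) rose. Per kilobase, Chrng made up 0.439% to 0.761% of the 5 subunits in WT and 5.09% to 9.37% in delEx44, and Chrne went from between 23.6% and 27.6% to between 9.17% and 14.5%.

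Regulators of these subunits and of the synapse gave no common direction. Runx1, a transcription factor of denervated and regenerating fibres, went from 5.89, 4.3 and 6.01 CPM to 33.4, 23 and 25 CPM (2.33 ± 0.22, adjusted p = 5.7e-06). Dach2, which represses myogenin in innervated fibres, fell from 3.59, 3.94 and 1.93 CPM to 0.574, 0.477 and 0.708 CPM (−2.42 ± 0.38, adjusted p = 0.00022). Hdac4 fell by 0.41. Musk, the receptor that organises the synapse, was at 14 CPM on average in WT and 13.4 in delEx44 (adjusted p = 0.85), and the library values of Lrp4 (−0.05, adjusted p = 0.77) also overlapped.

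Calcium handling genes fell nearly as a block, with 22 of 28 lower and 3 higher (median −0.59, and −0.20 with 14 falls and 6 rises under total counts alone). Ryr1, the calcium release channel (chromosome 7, 29003344 to 29125179), was at 2610, 2220 and 2300 CPM in WT and 1020, 1160 and 1160 CPM in delEx44 (log2 −1.10 ± 0.1, adjusted p = 3.1e-06). Cacna1s, the voltage sensor that opens it, was at 822, 817 and 805 against 366, 457 and 430 CPM (−0.96 ± 0.091, adjusted p = 4e-06). Stac3 (−0.87), Jph1 (−0.97) and Camk2a (−1.02), which dock or tune this pair, fell by similar amounts. Sln, sarcolipin, a small inhibitor of the calcium pump, went the other way, from 2.02, 1.95 and 1.4 CPM to 24.7, 9.74 and 12.8 CPM (3.14 ± 0.4, adjusted p = 9e-05). The slow calcium pump Atp2a2 (0.61) and the slow calsequestrin Casq2 (0.98) were called higher only with WT replicate 3 in the fit (adjusted p = 0.066 and 0.11 without it).

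Of 26 ion channel and pump genes 12 fell and 5 rose (median −0.14, and 0.25 with 10 falls and 11 rises under total counts alone). Scn4a, the adult sodium channel, was at 410, 388 and 373 CPM in WT and 191, 221 and 202 CPM in delEx44 (−0.93 ± 0.1, adjusted p = 1.2e-05). Clcn1, the chloride channel that steadies the membrane, went from 181, 167 and 165 CPM to 80.6, 99.4 and 90.4 CPM (−0.92 ± 0.088, adjusted p = 4.1e-06). Both were lower in every delEx44 library than in any WT library. Kcnn3, a calcium-activated potassium channel, rose by 1.34, and Trpv2, a cation channel, by 1.86.

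Most glycolysis genes and a smaller share of glycogen and phosphocreatine genes fell. Of 24 glycolysis genes 20 fell and 2 rose (median −0.57, and −0.18 with 10 falls and 2 rises under total counts alone). Of 28 genes of glycogen and phosphocreatine use 16 fell and 4 rose (median −0.52, and −0.12 with 12 falls and 9 rises under total counts alone). Ckm, muscle creatine kinase, went from 34100, 31700 and 32900 CPM to 14600, 17400 and 18400 CPM (log2 −0.97 ± 0.11, adjusted p = 1.3e-05). Pygm, muscle glycogen phosphorylase (chromosome 19, 6384399 to 6398459), went from 8730, 7530 and 7960 CPM to 3350, 3920 and 4210 CPM (−1.08 ± 0.11, adjusted p = 7.1e-06). Pgam2 (−0.79), Gpd1 (−0.81), Gpd2 (−1.21) and Bpgm (−0.77) fell as well. Aldoa (−0.69), Eno3 (−0.55) and Ldha (−0.49) fell by less than Ckm.

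The muscle isoform of an enzyme fell while its general isoform rose in several pairs. Hk2, the insulin-responsive hexokinase, fell by 0.72, while Hk1 rose from 23.7, 21.2 and 24.8 CPM to 40.4, 37.6 and 36.9 CPM (0.72 ± 0.09, adjusted p = 3e-05). Ckb, brain creatine kinase, rose from 13.9, 13.2 and 17.5 CPM to 39.4, 33.7 and 29 CPM (1.19 ± 0.16, adjusted p = 6.2e-05). Ucp3, the uncoupling protein of fibres, fell from 171, 300 and 318 CPM to 54.1, 62 and 75.9 CPM (−2.04 ± 0.59, adjusted p = 0.016), and Ucp2, that of macrophages and other cells, rose from 32.1, 36.3 and 52.6 CPM to 101, 86.1 and 101 CPM (1.25 ± 0.2, adjusted p = 0.00031). The same held for the ribosomal protein pair described further on. These pairs were set side by side after the values were seen, and whether the rises come from fibres or other cells was not tested.

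Respiratory chain genes fell by small and similar amounts. Of 36 complex I genes 33 fell and 0 rose (median −0.39, and 0.0045 with 3 falls and 2 rises under total counts alone). Of 43 genes of complexes II to V 32 fell and 1 rose (median −0.34, and 0.06 with 1 fall and 3 rises under total counts alone). With RLE or upper-quartile factors 33 complex I genes were lower, as with TMM, so of the scalings tried total counts alone removed most of these calls. Ndufs1, a core subunit of complex I, was at 722, 777 and 596 CPM in WT and 466, 468 and 512 CPM in delEx44 (−0.54 ± 0.11, adjusted p = 0.0011). Cox6a2, the subunit of cytochrome oxidase made only in muscle and heart, fell most, from 664, 742 and 724 CPM to 373, 395 and 400 CPM (−0.87 ± 0.078, adjusted p = 2.9e-06). Cox8a, the general isoform of another oxidase subunit, rose by 0.47 (adjusted p = 0.038).

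Citric acid cycle genes and mitochondrial regulators fell in 23 of 31 cases (median −0.48, and −0.08 with 9 falls and 5 rises under total counts alone), and Ucp2 alone rose. Cs, citrate synthase, went from 1190, 1100 and 1020 CPM to 662, 720 and 753 CPM (−0.63 ± 0.087, adjusted p = 6.4e-05). The regulator Ppargc1a was at 61.3 CPM on average in WT and 46.3 in delEx44 and did not pass (adjusted p = 0.41). Fatty acid genes fell in 21 of 31 cases and rose in 0 (median −0.47, and −0.08 with 3 falls and 1 rise under total counts alone). Acsl1, which activates fatty acids, went from 460, 527 and 460 CPM to 249, 262 and 291 CPM (−0.85 ± 0.11), and Crat (−0.77) and Cpt2 (−0.55), of the carnitine shuttle, fell.

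**Figure D4:**
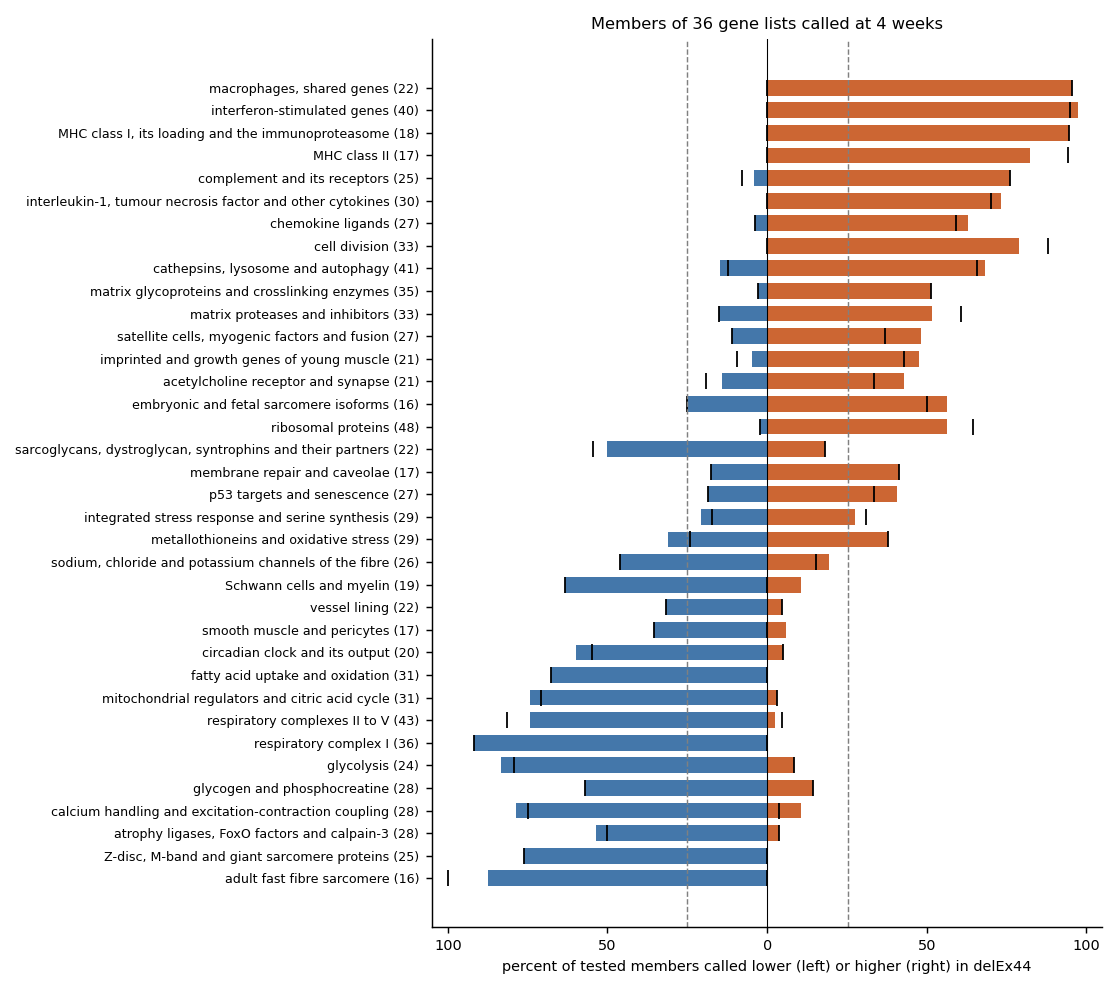
Percent of the tested members of 36 gene lists called lower (left, blue) or higher (right, orange) in delEx44, with the number tested in brackets. Black ticks give the same shares without WT replicate 3 and dashed lines the shares over all genes, which 21 of 22 macrophage genes and 33 of 36 complex I genes pass on opposite sides.

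Immune genes were most of the 15 largest rises, among them Ms4a4c (log2 4.66 ± 0.49), a membrane protein of monocytes, and the antibody receptor Fcgr4 (4.48 ± 0.48). Of 22 genes shared by macrophages 21 rose and 0 fell (median 2.72). Mpeg1, a pore-forming protein of macrophages (chromosome 19, 12460779 to 12465283), stood at 7.62, 8.48 and 12.1 CPM in WT and 321, 199 and 218 CPM in delEx44 (log2 4.71 ± 0.29, adjusted p = 9.4e-07). Ctss, cathepsin S, went from 17, 17.7 and 20.9 CPM to 486, 248 and 312 CPM (4.23 ± 0.3, adjusted p = 2e-06). In both, delEx44 replicate 1 was highest.

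The list of lipid-handling, phagocytic macrophages rose in 17 of 26 cases (median 1.18), and in 20 without WT replicate 3. Lgals3, galectin-3 (chromosome 14, 47367751 to 47386160), went from 5.92, 7.26 and 13.3 CPM to 220, 196 and 220 CPM (4.58 ± 0.33, adjusted p = 2.7e-06). Itgax, the integrin subunit CD11c, went from 0.472, 0.939 and 0.833 CPM to 19.5, 18.8 and 11.2 CPM (4.47 ± 0.33). Spp1, osteopontin, which macrophages and bone cells both make, turned on WT replicate 3. It was at 1.73, 3.36 and 122 CPM in WT and 246, 301 and 289 CPM in delEx44 (2.71 ± 1.2, adjusted p = 0.077), and without WT replicate 3 the difference was 6.79 (adjusted p = 2.7e-06). Every delEx44 library was above every WT library all the same.

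Mrc1, the mannose receptor, was at 86.1, 85.3 and 80.1 CPM in WT and 165, 179 and 157 CPM in delEx44 (1.00 ± 0.16, adjusted p = 0.00028). Timd4, a phosphatidylserine receptor of long-lived resident cells, fell from 2.93, 3.32 and 2.35 CPM to 1.68, 1.91 and 1.68 CPM (−0.70 ± 0.18, adjusted p = 0.0055). Lyve1, which marks resident cells along vessels and also lymphatic vessels, was at 36.5, 39.9 and 41.5 CPM against 21.1, 26.2 and 31.3 CPM (−0.58 ± 0.2, adjusted p = 0.03, and 0.078 without WT replicate 3). On the list of resident cells 12 of 22 genes rose and 3 fell, while without WT replicate 3, 12 rose and 1 fell, and under total counts alone 15 rose and 0 fell. Cd163 was at 36.7 CPM on average in WT and 28.1 in delEx44 and did not pass (adjusted p = 0.22), while the complement genes C1qa, C1qb and C1qc rose by 2.01, 2.28 and 2.03.

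Genes of incoming monocytes rose in 9 of 13 cases, and in 12 without WT replicate 3, and 0 fell. Ccr2, the receptor that brings monocytes into tissue, was at 5.64, 7.65 and 10.4 CPM in WT and 84.9, 70.8 and 67.1 CPM in delEx44 (3.23 ± 0.33, adjusted p = 2.1e-05). Ly6c2 was at 0.0315, 0.0722 and 4.58 CPM against 13.7, 6.65 and 7.4 CPM, and its call appeared only without WT replicate 3 (adjusted p = 0.06 with it and 1e-04 without). Its 3 delEx44 values were above all WT values in either case.

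Neutrophil genes could not be read with WT replicate 3 in the fit. Of 19 tested, 6 were called lower and 1 higher with it (median −1.63), and 7 higher and 0 lower without it (median 2.71). S100a9, a calcium-binding protein of neutrophils and monocytes, had 5, 7 and 2483 counts in WT and 372, 115 and 563 in delEx44. Without WT replicate 3 it was higher in delEx44 by 5.29 (adjusted p = 0.0081). Csf3r, the receptor for granulocyte growth factor, rose with all libraries (3.10, adjusted p = 0.00037). Granule genes of immature cells such as Ngp, Camp and Mpo were at 8 counts or fewer in each delEx44 library.

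Complement, chemokine and cytokine genes rose with the macrophage genes. Of 25 complement genes 19 rose and 1 fell (median 1.40). C3ar1, a complement receptor, went from 7.12, 6.35 and 7.17 CPM to 95.8, 66.1 and 70.6 CPM (3.49 ± 0.21, adjusted p = 7.1e-07), while C7, a part of the membrane attack complex, fell from 18.8, 9.71 and 9.79 CPM to 6.14, 4.86 and 5.54 CPM (−1.21 ± 0.3). Of 27 chemokines 17 rose and 1 fell (median 1.82). Ccl2, the ligand of Ccr2, went from 0.945, 1.95 and 3.09 CPM to 25.5, 37 and 25.8 CPM (3.87 ± 0.84, adjusted p = 0.0035), and Ccl8 from 2.42, 3.54 and 2.5 CPM to 26, 21.7 and 20.9 CPM (3.03 ± 0.33). Ccl25 alone fell, by 0.89. In each of these chemokines but Ccl25 the lowest delEx44 library was above the highest WT library.

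Chemokine receptors rose in 11 of 15 cases and fell in 3, while under total counts alone 12 rose and 0 fell. Cx3cr1, which marks patrolling monocytes and macrophages, rose by 3.43. With TMM the decoy receptors Ccrl2 (−0.70), Ackr2 (−0.61) and Ackr3 (−0.51) fell, of which Ackr2 lost its call without WT replicate 3 (adjusted p = 0.15). Among cytokines 22 of 30 rose and 0 fell (median 0.89). Tnf was at 0.0945, 0.217 and 0.238 CPM in WT and 0.85, 0.976 and 0.781 CPM in delEx44 (2.23 ± 0.5, adjusted p = 0.0025). Il1b went from 0.0315, 0.0722 and 0.238 CPM to 3.02, 0.999 and 0.903 CPM (3.77 ± 0.86). Both were rare transcripts. Il10ra, the interleukin-10 receptor, rose by 2.90, and Il6 had too few counts to be tested.

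Interferon-stimulated genes rose almost without exception. Of 40 tested, 39 rose and 0 fell (median 1.27), and 38 rose without WT replicate 3. Mx1, an antiviral GTPase (chromosome 16, 97447035 to 97462907), was at 1.01, 1.19 and 1.87 CPM in WT and 18.1, 8.95 and 11 CPM in delEx44 (log2 3.21 ± 0.37, adjusted p = 2.9e-05). Irf7, the factor that amplifies the response, went from 11.9, 12 and 14.6 CPM to 75, 36.8 and 48.6 CPM (2.06 ± 0.35, adjusted p = 0.00073). Isg15, a ubiquitin-like modifier, went from 4.19, 4.55 and 6.01 CPM to 24.1, 13.8 and 18.2 CPM (1.92 ± 0.35), and Ifit1, which binds foreign RNA, from 8.53, 8.41 and 9.31 CPM to 32.6, 19.4 and 20.2 CPM (1.46 ± 0.28). In all 4 genes delEx44 replicate 1 was highest and replicate 2 lowest. Gbp7 was the gene that did not pass, and it was lower (−0.46, adjusted p = 0.083).

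The promoters of Isg15 and Ifit1 are shown because this list shares a motif. The interferon response element was searched as GAAA, any 2 bases and GAAA, on both strands, and was in 18 of 29 list promoters (62.1%), against 3.99% of all promoters. Overlapping matches are counted apart, and Isg15 (chr4:156200769-156201068, minus) had 3 and Ifit1 (chr19:34640639-34640938, plus) had 2, in capitals.
Isg15 promoter: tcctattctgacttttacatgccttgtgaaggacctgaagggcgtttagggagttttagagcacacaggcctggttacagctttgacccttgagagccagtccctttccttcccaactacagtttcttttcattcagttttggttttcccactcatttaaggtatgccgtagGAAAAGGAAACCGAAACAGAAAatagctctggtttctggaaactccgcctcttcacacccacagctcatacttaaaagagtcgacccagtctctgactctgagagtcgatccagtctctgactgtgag
Ifit1 promoter: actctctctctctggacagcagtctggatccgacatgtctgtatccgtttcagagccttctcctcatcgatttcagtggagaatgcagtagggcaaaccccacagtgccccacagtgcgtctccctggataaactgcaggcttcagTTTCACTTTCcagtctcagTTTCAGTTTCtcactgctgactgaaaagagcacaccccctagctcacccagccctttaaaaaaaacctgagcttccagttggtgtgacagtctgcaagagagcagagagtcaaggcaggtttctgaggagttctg
Gbp7, which did not rise, also has a match in its promoter.

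Antigen presentation genes rose with them. Of 18 genes of class I presentation 17 rose and 0 fell (median 0.99). B2m, the light chain of class I molecules, went from 199, 276 and 258 CPM to 666, 447 and 470 CPM (1.11 ± 0.2, adjusted p = 0.0006), and Tap1, the peptide transporter, from 6.77, 7.18 and 7.41 CPM to 28.8, 19.3 and 20.7 CPM (1.69 ± 0.24). Of 17 class II genes 14 rose and 0 fell (median 2.03). Cd74, the class II invariant chain, went from 49.2, 59.2 and 47.8 CPM to 271, 218 and 198 CPM (2.14 ± 0.16, adjusted p = 1.3e-06), and Ciita, the class II activator, from 1.17, 1.26 and 1.13 CPM to 10.3, 6.13 and 4.42 CPM (2.55 ± 0.35).

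T and natural killer cell genes rose in 15 of 20 tested cases (median 2.19), and 9 genes of the list in the table, Cd8a and Foxp3 among them, had too few counts to be tested. The summed level of the list did not separate the groups, at 39, 33.9 and 33.9 CPM in WT and 46, 33.7 and 34.4 CPM in delEx44. Cd4, which mouse T cells and some myeloid cells carry, went from 0.724, 0.794 and 0.892 CPM to 5.76, 2.88 and 3.08 CPM (2.28 ± 0.38, adjusted p = 0.00032). The killer cell genes Gzma (3.20), Prf1 (3.08) and Klrk1 (2.88) rose from under 1 CPM. Cd3e had a mean of 0.0634 CPM in WT and 0.254 in delEx44, and its call was lost without WT replicate 3 (adjusted p = 0.099). Cd28 went against the list, from 17.8, 14.9 and 13.7 CPM to 6.16, 5.68 and 7.2 CPM (−1.29 ± 0.21, adjusted p = 0.00026), at a level far above that of Cd3e in WT. Ikzf2 fell too (−0.65). The cells that carry Cd28 here were not tested. The B cell genes Rag1 and Cd79a were called lower only with WT replicate 3 in the fit (adjusted p = 0.95 and 0.69 without it), the library that held most of their counts.

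Cell division genes rose in 26 of 33 cases and fell in 0 (median 1.1), and 29 rose without WT replicate 3, whose own levels were high. Top2a, a topoisomerase of dividing cells, was at 11.4, 20.5 and 28.9 CPM in WT and 48, 47.5 and 40.4 CPM in delEx44 (1.16 ± 0.3, adjusted p = 0.0075). Mki67, which encodes the Ki-67 antigen, was at 14.7, 26.4 and 43.9 CPM against 52.8, 58.8 and 45.2 CPM (0.88 ± 0.39, adjusted p = 0.085, and 1.35 with adjusted p = 0.016 without WT replicate 3). Ccnb1, cyclin B1, rose by 1.54. WT replicate 3 was the highest WT library for all 3 genes.

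Matrix genes rose unevenly. Of 27 collagens 11 rose and 2 fell (median 0.29). Col3a1, the collagen of loose and repairing tissue, went from 3320, 3490 and 3400 CPM to 5660, 5590 and 5110 CPM (log2 0.68 ± 0.14, adjusted p = 0.0013). Col1a1, the main collagen of scar, tendon and bone, was at 1810, 1660 and 2470 CPM in WT and 1870, 2170 and 1670 CPM in delEx44 (−0.06 ± 0.21, adjusted p = 0.84, and 0.14 with adjusted p = 0.62 without WT replicate 3). Its groups overlapped with and without that library. Col8a1, a collagen of vessels and injury, rose from 31.9, 32 and 32.3 CPM to 111, 85.9 and 89.9 CPM (1.57 ± 0.21), and Col19a1 (1.09), Col14a1 (1.00) and the collagen VI chain Col6a3 (0.56) rose.

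The 2 collagens that fell belong to 1 network. Col4a3 (chromosome 1, 82586921 to 82722059) went from 8.94, 6.97 and 8.06 CPM to 2.25, 3.02 and 2.03 CPM (−1.71 ± 0.16, adjusted p = 3.8e-06). Col4a4, the neighbouring gene transcribed the other way from a shared promoter region, went from 8.79, 6.79 and 6.28 CPM to 2.02, 3.47 and 2.1 CPM (−1.52 ± 0.22, adjusted p = 0.0001). The basement membrane chains Col4a1 and Col4a2 did not pass (0.13 and 0.11, adjusted p = 0.36 and 0.38). At synapses the alpha3 to alpha5 chains are known to form their own basement membrane, and Col4a5 did not pass (−0.18, adjusted p = 0.073).

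Of 35 matrix glycoproteins and crosslinking enzymes 18 rose and 1 fell (median 0.38). Postn, periostin, a matricellular protein of injured tissue (chromosome 3, 54361109 to 54391037), went from 140, 213 and 176 CPM to 1260, 699 and 842 CPM (2.41 ± 0.28, adjusted p = 4.2e-05). Fn1, fibronectin, went from 323, 293 and 356 CPM to 730, 828 and 610 CPM (1.16 ± 0.17), and Tnc, tenascin C, from 57.6, 45.3 and 90.9 CPM to 132, 121 and 116 CPM (0.93 ± 0.28, adjusted p = 0.017). Postn was highest in delEx44 replicate 1 and Fn1 in replicate 2. Lox, the first lysyl oxidase, did not pass (0.11, adjusted p = 0.64), while Loxl1 rose by 0.96. Among small proteoglycans Lum (1.11) and Bgn (0.92) rose, and Dcn, decorin, was at 1240, 1160 and 1190 CPM against 1260, 1160 and 1120 CPM (−0.02 ± 0.11, adjusted p = 0.91).

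Proteases rose in 17 of 33 cases and fell in 5 (median 0.53). Adam8, a sheddase of myeloid cells (chromosome 7, 139978932 to 139992562), went from 1.76, 1.84 and 3.57 CPM to 37.1, 41.5 and 41.1 CPM (4.04 ± 0.33, adjusted p = 3.8e-06). Mmp14, the membrane-bound collagenase, went from 54.5, 45.2 and 50.4 CPM to 134, 131 and 107 CPM (1.31 ± 0.16), and Timp1, a protease inhibitor induced by injury, from 4.31, 6.03 and 9.19 CPM to 43.1, 30.4 and 46.1 CPM (2.61 ± 0.5). Timp4, the inhibitor made in muscle and heart, fell from 43.2, 47.1 and 41.3 CPM to 13.7, 12.2 and 16.4 CPM (−1.64 ± 0.32, adjusted p = 0.0018), and Timp3 fell by 0.92. The inhibitors thus split, with Timp1 and Timp2 (0.31) higher and Timp3 and Timp4 lower. Serpine2 fell by 0.87.

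In the TGF-beta pathway 12 of 35 genes rose and 5 fell (median 0.14). The ligand Tgfb1 went from 11, 10.3 and 10 CPM to 30.8, 25.4 and 24.4 CPM (1.37 ± 0.11, adjusted p = 1.6e-06), and Ltbp2, a latency-binding matrix protein, from 1.35, 1.37 and 2.38 CPM to 9.03, 10.9 and 9.76 CPM (2.53 ± 0.36). Smad3, which carries the signal, fell from 139, 116 and 117 CPM to 72.4, 92.2 and 82 CPM (−0.60 ± 0.12, adjusted p = 0.0013). Ctgf, a common target, was at 118, 85.6 and 149 CPM against 51.2, 74.2 and 126 CPM and did not pass (adjusted p = 0.42). Of 21 genes of fibro-adipogenic progenitors, the resident fibroblasts of muscle, 5 rose and 1 fell (median 0.22). Pdgfra, their surface marker, was at 76, 68.8 and 70.5 CPM against 93, 101 and 94.3 CPM (0.42 ± 0.092, adjusted p = 0.0019).

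Genes of Schwann cells, which wrap the nerves in muscle, fell in 12 of 19 cases and rose in 2 (median −0.70, and −0.30 with 6 falls and 5 rises under total counts alone). Mbp, a myelin protein, was at 39.3, 63.5 and 37.5 CPM against 22.2, 27.5 and 24.3 CPM (−0.92 ± 0.19). WT replicate 2 was the highest library for Mbp, and the difference was −1.06 without WT replicate 3. The 2 genes called higher, Drp2 and Erbb3, lost their call without it (adjusted p = 0.11 and 0.083). How much nerve each muscle piece held was not tested.

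Vessel genes changed little. Of 22 genes of the vessel lining 7 fell and 1 rose (median −0.17, and 0.23 with 1 fall and 8 rises under total counts alone). Pecam1, which all endothelial cells carry, was at 126, 154 and 116 CPM in WT and 123, 137 and 116 CPM in delEx44 (−0.07 ± 0.11, adjusted p = 0.59). Aqp1, a water channel of capillaries, fell from 421, 479 and 366 CPM to 186, 218 and 209 CPM (−1.05 ± 0.18, adjusted p = 0.00042), and Plvap, of leaky vessels, rose by 0.52. Among 17 smooth muscle and pericyte genes 6 fell and 1 rose (median −0.19, and 0.21 with 2 falls and 6 rises under total counts alone). Myh11, smooth muscle myosin, fell from 73.3, 71.1 and 56.3 CPM to 38, 44.6 and 37.3 CPM (−0.74 ± 0.12). Hgf, the growth factor that wakes satellite cells, rose from 0.472, 0.361 and 0.387 CPM to 3.87, 2.84 and 2.32 CPM (2.87 ± 0.29), and Pgf fell by 1.32.

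Of 18 fat cell genes 6 fell and 0 rose, and 5 fell without WT replicate 3. Adipoq, adiponectin, was at 29.9, 15.9 and 82.8 CPM in WT and 12.9, 19.8 and 25.7 CPM in delEx44 (−1.14 ± 0.73, adjusted p = 0.22, and −0.24 with adjusted p = 0.8 without WT replicate 3). Fasn, fatty acid synthase, was at 148, 101 and 602 CPM against 40.3, 80.4 and 51.2 CPM (−2.31 ± 0.94, adjusted p = 0.065, and −1.12 with adjusted p = 0.32 without it). WT replicate 3 held the most fat transcripts of the 6 libraries. Dio2, which activates thyroid hormone, rose from 3.59, 3.72 and 3.9 CPM to 19.8, 12.3 and 11.5 CPM (1.96 ± 0.29, adjusted p = 0.00016).

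Lysosomal genes rose in 28 of 41 cases and fell in 6 (median 0.59, and 0.98 with 1 fall and 36 rises under total counts alone). Lgmn, legumain, a lysosomal protease, went from 70.1, 79.5 and 76 CPM to 341, 263 and 307 CPM (log2 2.02 ± 0.13, adjusted p = 7e-07). The members that fell with TMM were autophagy genes and their regulator, and most of these falls were not found under total counts alone. Tfeb, the factor that switches on lysosomal genes, fell from 58.6, 57.7 and 56 CPM to 39.5, 39.2 and 42 CPM (−0.52 ± 0.061, adjusted p = 2.1e-05), and Ulk1, which starts autophagy, fell by 0.60. Bnip3 (−0.53), Map1lc3b (−0.32), Becn1 (−0.27) and Sqstm1 (−0.24) were the others, of which Sqstm1 lost its call without WT replicate 3 (adjusted p = 0.057). Map1lc3b, Becn1 and Sqstm1 changed sign under total counts alone.

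Protein breakdown genes of the fibre fell more often than they rose. Of 28 atrophy genes 15 fell and 1 rose (median −0.53, and −0.14 with 9 falls and 4 rises under total counts alone). Trim63, the ligase MuRF1, was at 248, 316 and 249 CPM in WT and 156, 176 and 253 CPM in delEx44 (−0.48 ± 0.35, adjusted p = 0.28), and Fbxo32, atrogin-1, was at 75.5, 76.6 and 96.1 CPM against 75.5, 103 and 120 CPM (0.26 ± 0.37, adjusted p = 0.58). Both overlapped between groups. Capn3, the muscle calpain, fell from 292, 257 and 234 CPM to 120, 134 and 138 CPM (−1.0 ± 0.087, adjusted p = 2.1e-06), and Mylip rose by 0.57. Proteasome genes fell in 14 of 32 cases and rose in 2, by small amounts (median −0.11, and 0.28 with 1 fall and 29 rises under total counts alone).

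Ribosomal protein genes rose in 27 of 48 cases and fell in 1 (median 0.22). The exception was the muscle isoform. Rpl3l, which replaces Rpl3 in ribosomes of mature muscle, fell from 525, 490 and 474 CPM to 256, 277 and 297 CPM (−0.84 ± 0.089, adjusted p = 8.7e-06), and Rpl3 rose from 54, 66.8 and 73.3 CPM to 163, 129 and 143 CPM (1.17 ± 0.12, adjusted p = 6e-06). Rpl3 thus went from between 5.05% and 7.41% of the pair per kilobase to between 19.4% and 24.8%. Several ribosomal genes have near-identical pseudogenes, so their counts are uncertain.

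Stress genes gave a mixed picture with TMM, while few of them were lower under total counts alone. Of 27 p53 targets and senescence genes 11 rose and 5 fell (median 0.17, and 0.58 with 1 fall and 17 rises under total counts alone). Cdkn2a, a cell-cycle inhibitor of senescent cells (chromosome 4, 89274471 to 89294653), was at 0.126, 0.181 and 0.119 CPM in WT and 1.36, 0.727 and 0.732 CPM in delEx44 (2.72 ± 0.37, adjusted p = 5.5e-05). Cdkn1a, another inhibitor, was at 50.7, 27.9 and 29.2 CPM against 116, 70.9 and 89.3 CPM (1.36 ± 0.42, adjusted p = 0.021, and 0.069 without WT replicate 3). Ccng1, a p53 target abundant in fibres, fell from 1770, 1960 and 1690 CPM to 908, 946 and 1110 CPM (−0.87 ± 0.086). In the integrated stress response 8 of 29 genes rose and 6 fell (median 0.03, and 0.41 with 0 falls and 15 rises under total counts alone). The serine synthesis genes Psat1 (1.22) and Phgdh (0.78) rose, and Atf4 itself was called lower with all libraries (−0.19, adjusted p = 0.049) and not without WT replicate 3 (adjusted p = 0.053).

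Among 29 genes of oxidative stress and metal binding 11 rose and 9 fell (median 0.10, and 0.50 with 2 falls and 20 rises under total counts alone). Ftl1, the ferritin light chain, went from 129, 127 and 172 CPM to 493, 407 and 464 CPM (1.67 ± 0.14, adjusted p = 1.7e-06), and the phagocyte oxidase genes Cyba (1.86), Cybb (2.88) and Ncf1 (1.95) rose. Sod2, the mitochondrial superoxide dismutase, fell by 0.62. Polyamine genes gave no common direction. Of 12, 5 fell and 3 rose with all libraries, 4 fell and 5 rose without WT replicate 3, and 2 fell and 7 rose under total counts alone. Smox, spermine oxidase (chromosome 2, 131491496 to 131525922), fell from 273, 242 and 263 CPM to 59.2, 54.3 and 90 CPM (−1.94 ± 0.24, adjusted p = 5.3e-05). Sms, spermine synthase, fell by 0.78. Sat1, which acetylates polyamines for export, rose from 31.4, 37.7 and 29.8 CPM to 73, 50.9 and 63.5 CPM (0.92 ± 0.16), and Arg1 rose from under 1 CPM (3.65). Amd1 was listed at 0 in all 6 libraries.

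Clock genes fell in 12 of 20 cases and rose in 1 (median −0.75, and −0.36 with 8 falls and 4 rises under total counts alone). Dbp, an output factor that peaks by day in mice (chromosome 7, 45705088 to 45710203), was at 48.2, 53.5 and 87.4 CPM in WT and 10.9, 17.3 and 14.9 CPM in delEx44 (log2 −2.13 ± 0.53, adjusted p = 0.0073). Hlf, its relative, fell from 7.53, 7.04 and 9.19 CPM to 2.02, 2.11 and 1.76 CPM (−2.01 ± 0.21, adjusted p = 7.6e-06). Npas2, an activator in opposite phase, rose from 4.6, 3.83 and 2.59 CPM to 9.16, 9.42 and 7.74 CPM (1.26 ± 0.34, adjusted p = 0.0091). Output genes and the activator thus moved in opposite directions. Arntl, the main activator, was at 23, 24.4 and 17.4 CPM against 35.1, 30.9 and 29.9 CPM (0.57 ± 0.27, adjusted p = 0.1). The hour at which each muscle was taken is not in the labels, and its part was not tested.

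Beside these lists, the fit named the largest falls among genes at 5 CPM or more that did not overlap. Mylk4, a myosin light chain kinase relative of muscle (chromosome 13, 32700834 to 32783954), fell from 1050, 1050 and 1210 CPM to 138, 198 and 210 CPM (−2.60 ± 0.37, adjusted p = 0.00019). Mettl21c, a lysine methyltransferase of muscle (chromosome 1, 44009408 to 44020034), fell from 186, 170 and 122 CPM to 18.1, 28.7 and 33 CPM (−2.58 ± 0.35, adjusted p = 0.00017). Tfcp2l1, a transcription factor, fell from 11.6, 9.96 and 11.2 CPM to 1.51, 2.2 and 2.1 CPM (−2.50 ± 0.59, adjusted p = 0.0056). In all 3 delEx44 replicate 1 was lowest. Angptl7 (−2.50, and −1.95 without WT replicate 3) and Ces1d (−2.61 and −2.12) were highest in WT replicate 3, as were Cdh4 (−2.15 and −2.01) and Glb1l2 (−2.19 and −1.89), and all 4 passed in both fits. Ces1d has near-identical neighbours, so its count is uncertain.

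The same genotypes were also sampled at 8 weeks, after downhill running. That comparison has 2 libraries a group, shares none with the 4-week comparison and differs in both age and running, which cannot be told apart. After running 2239 genes were higher in delEx44 (14.9%) and 2131 lower (14.2%). The difference itself passed for 132 genes: the delEx44 value over WT at 4 weeks lay above that after running for 44 (0.293%) and below it for 88 (0.586%). With the 10 libraries of these 4 groups alone it passed for 41 genes, and with DESeq2 for 718. Leaving out 1 library at a time gave 11 to 167 genes, the lowest without WT run replicate 1. List counts after running are given side by side, with no test of the lists.

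Macrophage genes were higher in 21 of 22 cases at both stages, with medians of 2.72 and 1.89. Fast-fibre genes were lower in 14 of 16 cases at 4 weeks and 2 after running (medians −0.87 and −0.21), Z-disc genes in 19 and 6 of 25 (−0.78 and −0.17) and complex I genes in 33 and 10 of 36 (−0.39 and −0.25). Fatty acid genes were lower in 21 and 20 of 31 cases (−0.47 and −0.52). Interferon genes were higher in 39 of 40 cases at 4 weeks and 7 after running (1.27 and 0.54). Collagens were higher in 11 and 18 of 27 cases (0.29 and 0.71). For single interferon genes the difference between stages did not pass, as for Mx1 (adjusted p = 0.23) and Isg15 (adjusted p = 0.23).

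Several of the determination and contraction genes named above differed between the stages, as did the lysosomal gene Ctsd. Myod1 was at 45.3 and 26.7 CPM in WT and 20.9 and 31 CPM in delEx44 after running, so its log2 difference was 1.86 at 4 weeks and −0.47 after running (adjusted p of the difference 0.028). Actn3 was at 7820 and 8210 CPM in WT and 7110 and 6930 CPM in delEx44 after running (−1.19 and −0.19, adjusted p = 0.032). Ryr1 (−1.10 and −0.34, adjusted p = 0.042), Cacna1s (−0.96 and −0.23, adjusted p = 0.032), Myom2 (−0.61 and 0.28, adjusted p = 0.028) and Ctsd (0.72 and 0.07, adjusted p = 0.042) passed as well. Each of these differences was nearer 0 after running.

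The smallest p-values of the difference belonged to other genes. Dhrs7c, a reductase of the muscle calcium store, was at 289, 266 and 282 CPM in WT and 128, 137 and 136 CPM in delEx44 at 4 weeks, and at 252 and 251 against 226 and 211 CPM after running (log2 −1.06 and −0.20, adjusted p = 0.006). Ctxn3 was at 15, 15.7 and 17.5 against 14.2, 13.3 and 12.8 CPM at 4 weeks, and at 19.8 and 28.6 against 124 and 92.8 CPM after running (−0.26 and 2.17, adjusted p = 0.006). The delEx44 libraries stood apart from all others at 4 weeks for Dhrs7c and after running for Ctxn3. Rnf123, a ubiquitin ligase (−0.66 and 0.09, adjusted p = 0.006), Cpe (−0.53 and 0.18, adjusted p = 0.012), Mybph (−1.03 and 0.61, adjusted p = 0.013) and Kcne1l (1.40 and 3.59, adjusted p = 0.017) followed below the value after running. Above it lay Dapp1 (0.79 and −0.89, adjusted p = 0.012), Otub2 (−0.36 and −1.97, adjusted p = 0.013), Tbc1d1 (0.24 and −1.01, adjusted p = 0.017), Rnpep (0.61 and −0.14, adjusted p = 0.017) and Asb2, a muscle ubiquitin ligase subunit (−0.49 and −1.66, adjusted p = 0.017).

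Of 20 clock list genes 6 passed the test of the difference between the stages, 2 above the value after running and 4 below it. Dbp was lower in delEx44 at 4 weeks and higher after running, at 14.5 and 28.4 CPM in WT and 134 and 114 CPM in delEx44 there (log2 −2.13 and 2.53, adjusted p of the difference 0.041, and 0.055 without WT replicate 3). Arntl turned the other way, from 0.57 at 4 weeks to −2.11 after running, with 46 and 52.2 CPM in WT and 8.22 and 14.5 CPM in delEx44 there (adjusted p = 0.028). Ciart (−2.34 and 3.20, adjusted p = 0.029), Tef (−0.78 and 0.35, adjusted p = 0.031), Nr1d2 (−1.03 and 0.50, adjusted p = 0.047) and Cry1 (0.27 and −1.11, adjusted p = 0.048), chosen after their values were seen, also passed. The repressor Ciart is shown because it turned most. Its promoter (chr3:95882179-95882478, minus) held 3 matches of the E-box CACGTG, read the same on both strands and marked in capitals. The E-box was in 5 of 17 clock promoters (29.4%), in 8.09% of all promoters and in 11.2% of the promoters of tested genes.
Ciart promoter: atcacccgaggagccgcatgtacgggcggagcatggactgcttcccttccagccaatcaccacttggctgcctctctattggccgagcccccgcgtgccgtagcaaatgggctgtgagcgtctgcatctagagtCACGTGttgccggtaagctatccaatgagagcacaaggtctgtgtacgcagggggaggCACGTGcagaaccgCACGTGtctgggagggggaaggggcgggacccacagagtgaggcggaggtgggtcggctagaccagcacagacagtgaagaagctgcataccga

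**Figure D5:**
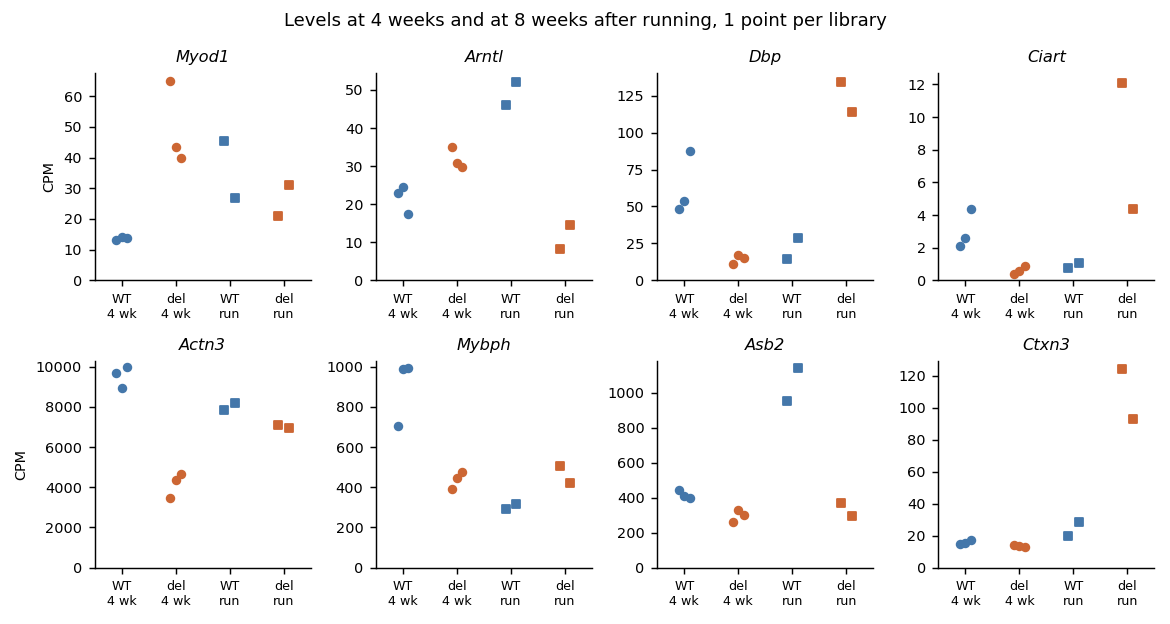
CPM of 8 genes (linear axes from 0) in each library of WT and delEx44 at 4 weeks (circles) and after running at 8 weeks (squares). Dbp and Ciart are lower in delEx44 at 4 weeks and higher after running, Arntl shows the reverse, and the gap in Actn3 is wide at 4 weeks and narrow after running.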

How the data were processed

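Quadriceps RNA-seq counts per gene were used as deposited: the authors made whole-number counts per gene, not normalized, with 1 column per library. Build mm10, HTSeq, edgeR, SAMtools 1.9, STAR 2.7.2b, Trim Galore and Bowtie2 2.3.4.3 are named, per the submitters' processing notes. For strand setting and annotation the entry is: not given in the sources used here, so antisense and overlapping genes cannot be told apart. The 5 records that name no gene (29.8% to 33.9% of the 6 libraries' counts) were left out, which leaves 24062 symbols. The 18-month table was not used here.

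Genes were tested with edgeR 4.0.16 (R 4.3.3, limma 3.58.1): filterByExpr with a minimum count of 10, TMM factors, robust quasi-likelihood fit of 15 libraries (WT, delEx44 and corrected, at 4 weeks and after running), and Benjamini-Hochberg adjustment with a threshold of 0.05. The 4-week corrected libraries and those after running entered the fit to share its estimate of spread. The pipeline was tested on simulated data with 200 changed genes. Alternatives were other size factors, other count minimums, DESeq2 1.42.0, limma-voom, only the 6 libraries, a test against a 1.5-fold change and leaving out each library.

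The text names key genes of 64 lists, up to 4 further members per direction with the smallest p, members that went against their list, all genes of the dystrophin lists, the 15 largest rises and falls, the 15 genes most raised in WT replicate 3, and the 6 smallest p per direction of the comparison with running. Members and lists were chosen with earlier results of these data known. Atp2a1, Cmya5, Col19a1, Col4a2, Col4a5, Col6a3, Gbp7, Hk2, Igf1, Lrp4, Myl1, Mylpf, Ncf1, Nes, Tcap, Timp2, Tpm1 and the globin genes other than Hbb-b1 were named after their values were seen. Of 558 gene names looked up, 548 matched once in GENCODE vM21, and positions are on GRCm38. Results for some of these genes are not reported here.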

Additional observations from a re-analysis of the deposited data

Results flagged for a closer look

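The genotype difference at 4 weeks was tested against that after running in edgeR's quasi-likelihood fit, with 3 libraries a group at 4 weeks and 2 after running. The delEx44 value over WT lay above that after running for 44 genes and below it for 88 genes. For Dbp, a clock output factor, the log2 difference at 4 weeks minus that after running was −4.66 ± 0.84 (adjusted p = 0.041, and 0.055 without WT replicate 3). All 3 delEx44 libraries were below all WT libraries at 4 weeks, and both were above both after running. On the same log2 scale, the difference at 4 weeks minus that after running was 2.33 for Myod1, 0.65 for Ctsd, 1.68 for Dapp1, 1.62 for Otub2, 1.25 for Tbc1d1, 0.75 for Rnpep, 1.17 for Asb2, 2.68 for Arntl and 1.38 for Cry1. It was −1 for Actn3, −0.76 for Ryr1, −0.74 for Cacna1s, −0.89 for Myom2, −0.86 for Dhrs7c, −2.42 for Ctxn3, −0.76 for Rnf123, −0.72 for Cpe, −1.64 for Mybph, −2.19 for Kcne1l, −5.54 for Ciart, −1.12 for Tef and −1.54 for Nr1d2. Groups of 3 libraries were not tested for single libraries that stand apart.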

How the results depend on the processing

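No paired analysis was possible because the 4-week groups share no replicate numbers in their labels. The number of genes called at 4 weeks (7541) was 5977 to 7272 when 1 library was left out, with 3136 to 3641 higher and 2841 to 3631 lower. The test against a 1.5-fold change left 1651 calls, 1298 higher and 353 lower. Under total counts alone 8789 genes were higher and 851 lower. The genotype difference against that after running passed for 132 genes, for 1323 under total counts alone, for 718 with DESeq2, for 41 with the 10 WT and delEx44 libraries alone, and for 11 to 167 when 1 library was left out. The cause was not tested.

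Of 280 named genes tested, 17 changed sign under total counts alone and were called in that fit or the main one, where their log2 values were Utrn 0.33, Dtna 0.15, Dag1 0.26, Lama2 0.28, Cav3 0.23, Large 0.11, Pomt1 0.0483, Dysf 0.0109, Mef2c 0.00857, Lrp4 0.35, Dcn 0.38, Col4a5 0.22, Pecam1 0.33, Atf4 0.21, Becn1 0.13, Map1lc3b 0.0749 and Sqstm1 0.15. Without WT replicate 3, 8 did so, and their values ranged, over the fits without 1 library, from −2.23 to 5.29 for S100a9, −3.73 to 4.22 for Col10a1, −8.03 to 3.28 for Camp, −8.12 to 2.92 for Bglap, −7.77 to 2.71 for Ngp, −7.54 to 2.42 for Hemgn, −8.09 to 0.73 for Mpo and −3.61 to 0.42 for Cd79a, each highest without WT replicate 3. These fits rest on few counts for Camp, Bglap, Ngp, Hemgn and Mpo, since both groups then have 8 counts or fewer a library. A change of sign is not counted where neither the main fit nor the alternative called the gene. Examples are Col1a1 (0.14 without WT replicate 3) and, under limma-voom only, Col10a1 (0.75).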
